A study of Mus musculus with 13 samples.

Results

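Neuro2a, a mouse neuroblastoma line, was compared here between passage 6 and passage 1 after a simulated failure of liquid nitrogen storage. The comparison takes 7 of the 13 RNA-seq libraries of the series, 3 from survivors at passage 6 and 4 from survivors at passage 1. Genes were joined by Ensembl identifier, and those with at least 1 FPKM (a read level corrected for transcript length and library size) in at least 3 of the 7 libraries were tested, which left 12471 of 34856 genes. Per the labels, the cells grew in DMEM with fetal bovine serum and were frozen in 10% DMSO, controls and survivors alike. The vials of the survivors were in a liquid nitrogen dewar placed at 4 °C, where the nitrogen evaporated over 10 h and the vials then stayed for 24 h, before 72 h at -80 °C and a thaw at 37 °C. Control vials stayed in ordinary cryostorage and were thawed and plated in the same way. Passage 1 was taken when fast growth had returned and passage 6 when the cells looked normal, and each passage also has 3 control libraries. Libraries were made from poly(A) RNA with an integrity number above 7.0 by a method that keeps the strand. All libraries come from 1 cell line, and the labels do not say how many vials each group came from.

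As background, cells that recover from freezing must refold proteins, rebuild adhesion and return to division. The endoplasmic reticulum folds secreted and membrane proteins and answers a load of unfolded protein through the sensors Atf6, Ern1 and Eif2ak3. Low oxygen stabilises hypoxia-inducible factor, which raises glycolytic enzymes and mitophagy receptors. Serum and growth factors raise immediate early genes, actin genes and the feedback inhibitors of ERK signalling. Neuro2a cells are of sympathetic neuroblast type and carry dense-core granules, the vesicles that store peptide hormones and catecholamines.

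The libraries were examined before the genes. Pairwise correlations of log2(FPKM + 1) were 0.977 to 0.991 among the passage 1 survivors and 0.979 to 0.992 among the passage 6 survivors, against 0.917 to 0.939 between the passages, and 12014 to 12413 genes reached 1 FPKM. Libraries 2 and 3 of passage 6 stood apart in transcripts of other tissues. Alb, the albumin of hepatocytes, was at 0, 67.4 and 56.8 FPKM in passage 6 libraries 1, 2 and 3 and at 0 in every passage 1 survivor library. Summed markers of liver were 59.3, 53.5, 55.2 and 55.5 FPKM at passage 1 and 26.3, 379 and 317 FPKM at passage 6, and those of fibroblasts were 10.1, 9.8, 12.2 and 4.79 FPKM and 5.48, 155 and 139 FPKM. Ass1 made up most of the liver sum in the passage 1 libraries and in passage 6 library 1. It was at 50.7, 47.7, 50.7 and 50.03 FPKM at passage 1 and 14.8, 13.1 and 16.7 FPKM at passage 6. Like Alb, the liver markers Apoa2, Fga, Mup20 and Fabp1 were at 0 in every passage 1 survivor library and in passage 6 library 1. Col1a1, a defining fibroblast collagen, was at 2.89, 2.77, 3.57 and 0.462 FPKM at passage 1 and 0.265, 90.8 and 82.1 FPKM at passage 6. Markers of brain and myelin summed to 34.1, 29.8, 44.5 and 37.3 FPKM and then 27.4, 102 and 81.4 FPKM. Markers of colon epithelium went the other way and were uneven at passage 1, at 252, 230.4, 8.54 and 108 FPKM, against 136, 9.59 and 10.2 FPKM at passage 6. Of the 16 neuroblastoma markers, 13 passed the filter. The whole list summed to 1366 to 1413 FPKM at passage 1 and 1548 to 1724 FPKM at passage 6, so markers of the labelled line were present in all 7 libraries. The higher sum does not hold for each member. Chgb alone was at 148, 132, 163 and 155 FPKM and then 648, 631 and 562 FPKM. By the calls described below, 2 of the 13 rose and 7 fell (median log2 change -0.55). Nefl was near 0 except in passage 6 libraries 2 and 3, at 2.91 and 2.24 FPKM. Counts of changed genes are therefore also given without passage 6 libraries 2 and 3, which leaves passage 6 library 1 alone and assumes that it varies like the passage 1 group. The part of these transcripts of other tissues in any other result was not tested. In bulk RNA, fewer cells of a type and less RNA per cell cannot be told apart.

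**Figure D1:**
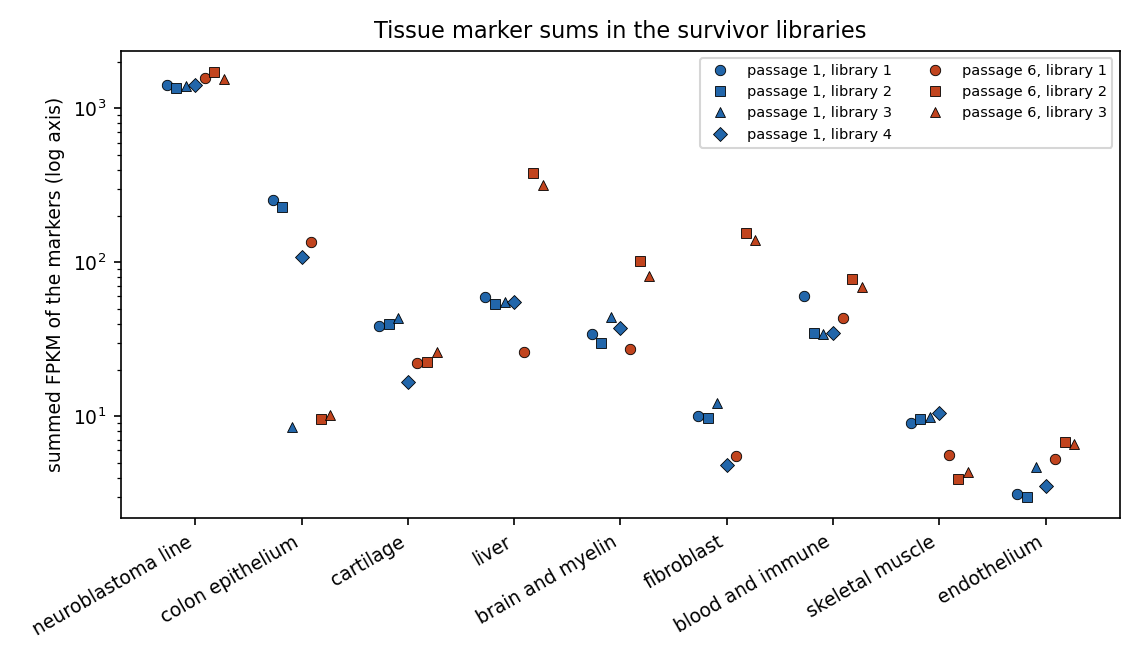
Summed FPKM of the marker genes of 9 tissues (horizontal axis) in each of the 7 survivor libraries, on a log axis, with 1 point per library, blue for passage 1 and red for passage 6. Liver and fibroblast sums are high in passage 6 libraries 2 and 3, while passage 6 library 1 lies within or below the range of the passage 1 libraries. Outside passage 6 libraries 2 and 3, the liver sum is mostly Ass1.

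Across the transcriptome the survivors moved widely between the passages. By limma with Benjamini-Hochberg adjustment, 2912 genes (23.4%) were higher and 5885 (47.2%) lower at passage 6 on the FPKM as deposited, and together 8797 of the 12471 (70.5%). After median-of-ratios scaling 4111 (33.0%) were higher and 3805 lower, or 7916 in all (63.5%). The scaling moved the median log2 change of all genes from -0.21 to -0.01 and the share of calls that were higher from 33.1% to 51.9%. Since the passages were deposited as separate tables, passage cannot be told apart from the table or the scaling applied to it. In what follows a gene is said to have risen or fallen only where both scalings call it in the same direction. That rule holds for 6717 genes, or 53.9% of those tested. Of all genes tested, 23.4% rose and 30.5% fell, 430 and 544 of them at least 2-fold, and 4 and 8 at least 4-fold. Without passage 6 libraries 2 and 3, 1942 genes rose and 2190 fell. The groups did not overlap for 69.3% of the genes tested. Fold changes are on the log2(FPKM + 1) scale, which understates the change of weakly expressed genes. The labels do not say whether replicates came from separate cultures, so p-values measure the spread between these libraries, which may be technical.

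The controls, which had not gone through the storage failure, were grown over the same passages. Among the same genes 2989 were higher and 4034 lower in controls at passage 6, or 24.0% and 32.3% and 56.3% together. Across the 12471 genes the log2 changes of survivors and controls had a Pearson r of 0.849 and a Spearman rho of 0.860. These are across genes, which are not independent replicates, and the passages and deposited tables are shared. Of the genes that rose in survivors, 2349 (80.7%) also rose in controls, which is 78.6% of the genes that rose there. Of those that fell, 2936 (77.2%) also fell in controls, or 72.8% of the controls' falls. Genes called in opposite directions numbered 9 among those that rose in survivors and 5 among those that fell. The change itself was compared in one limma fit over all 13 libraries, as the change of survivors minus the change of controls. By both scalings it was above 0 for 967 genes (7.75%) and below 0 for 785 (6.29%), 1752 genes (14.0%) in all. Without passage 6 survivor libraries 2 and 3 these counts were 767 and 533. On the deposited FPKM alone 1914 of 13137 genes (14.6%) were called, 8.37% above and 6.2% below 0, and leaving out any 1 of the 6 control libraries lowered this to between 1146 and 1206. Among genes that rose in survivors, 533 rose more than in controls and 101 rose less, and among those that fell, 369 fell more and 83 less. Survivors and controls already differed at passage 1, and those passage 1 libraries are part of this difference. The gene lists below were drawn up with that passage 1 comparison known. Passage 1 survivors are the baseline of the survivors' change and part of the difference, so the lists' direction in either is not independent evidence.

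**Figure D2:**
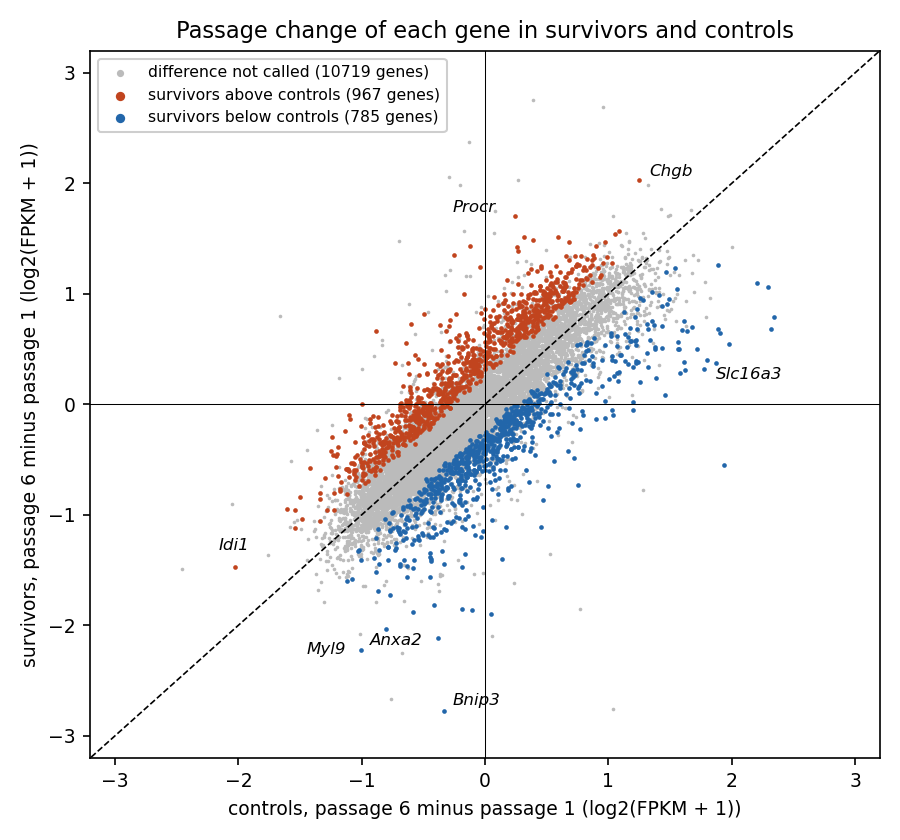
Log2 change from passage 1 to passage 6 in survivors (vertical axis) against that in controls (horizontal axis), with 1 point per gene tested and the dashed line marking equal change. Genes whose change was above that of controls are red (967), those below are blue (785) and the rest grey, and most points follow the diagonal (Pearson r 0.849 over 12471 genes).

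Pathway lists were read by the number of members that rose or fell and by their median, beside a median log2 change of -0.21 in survivors and -0.22 in controls over all genes tested. Of the 47 pathway lists, mitochondrially encoded, mesenchymal, secretory granule and endoplasmic reticulum folding genes had the highest medians in survivors. The mesenchymal median was 0.95 in survivors and 0.30 in controls, and this list varied with passage 6 libraries 2 and 3, which held fibroblast transcripts. On the deposited FPKM 10 of its 15 genes were higher without passage 6 library 1, but 4 without library 2 and 4 without library 3. Contractile, immediate early, annexin and S100, proteasome and ribosomal protein genes had the lowest.

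**Figure D3:**
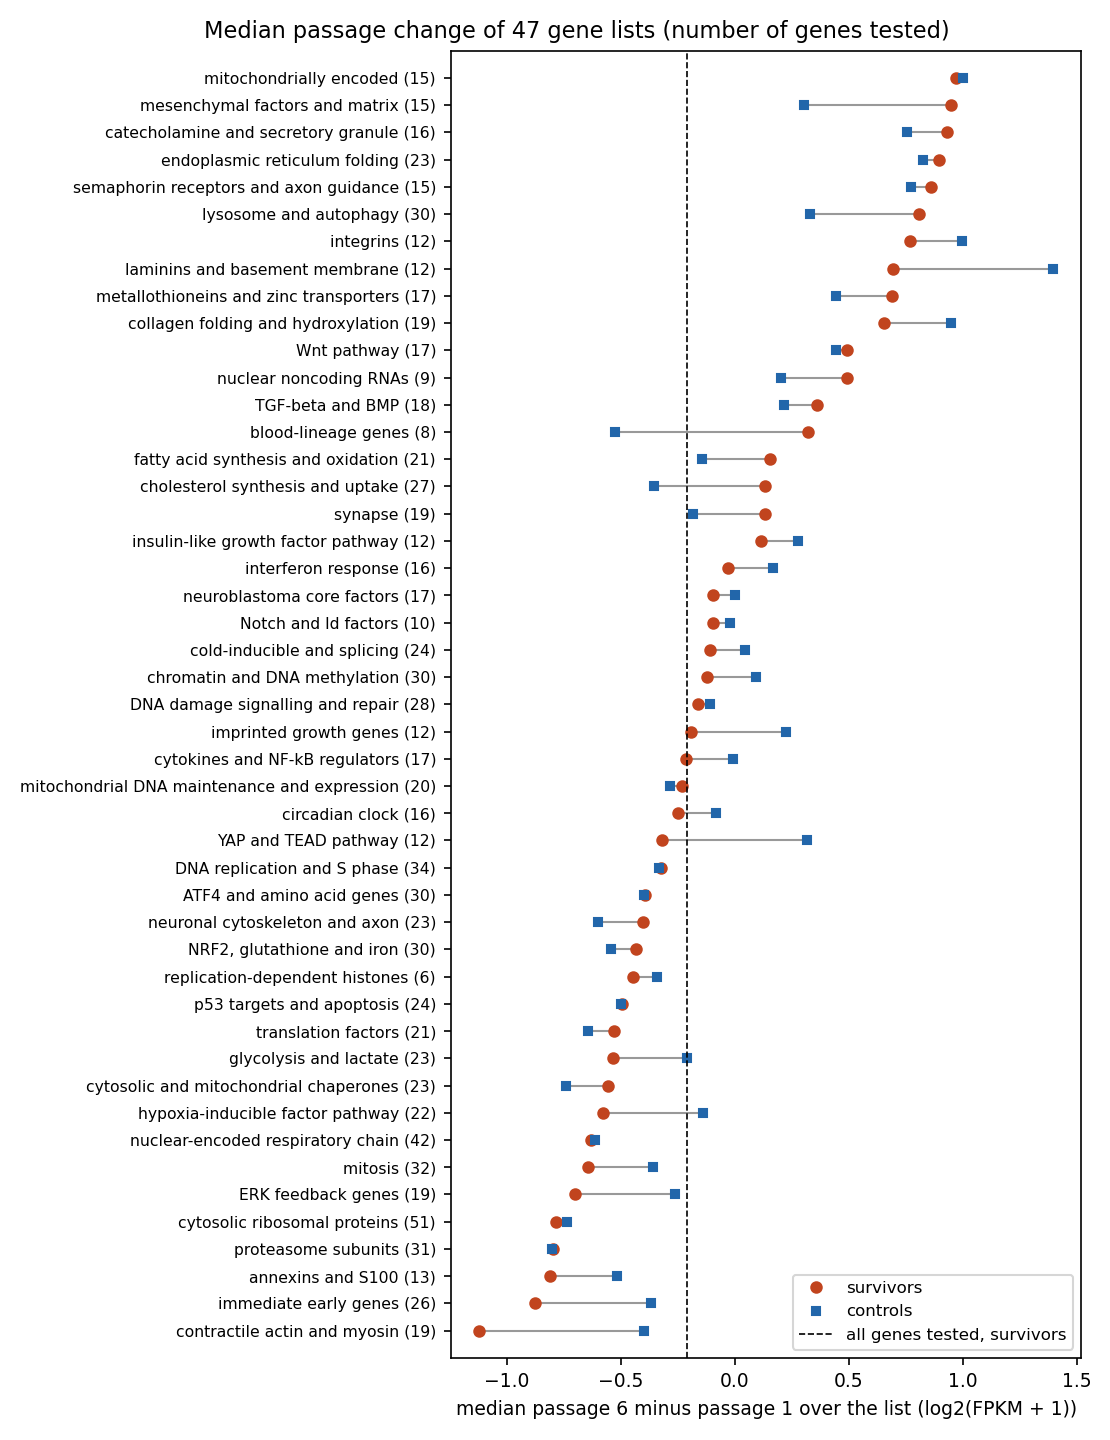
Median log2 change from passage 1 to passage 6 of each pathway list in survivors (red circles) and in controls (blue squares), with the number of genes tested in brackets and a dashed line at the survivors' median of all genes tested. Lists such as endoplasmic reticulum folding (0.90 and 0.83) and ribosomal proteins (-0.79 and -0.74) have nearly the same median in both, while contractile genes (-1.12 and -0.40) and immediate early genes (-0.88 and -0.37) lie further down in survivors.

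Genes of protein folding in the endoplasmic reticulum rose together, 22 of 23 tested with 0 falling, at a median log2 change of 0.90. Without passage 6 libraries 2 and 3, 21 rose. The list rose as widely in controls (23 of 23, median 0.83), and 0 members rose more and 0 less in survivors than in controls. Hspa5, the chaperone BiP (chr2:34771970-34777547 on GRCm38), was at 239, 227, 280.2 and 274 FPKM at passage 1 and 563, 526 and 535 FPKM at passage 6 (log2 change 1.09 ± 0.09 SE, adjusted p = 1.6e-05). Every passage 6 library lay above every passage 1 library. Calr, the lectin chaperone calreticulin, was at 283, 274, 228 and 236 FPKM at passage 1 and 614, 587 and 605 FPKM at passage 6 (log2 change 1.24 ± 0.09 SE, adjusted p = 1e-05), and again the groups did not overlap. Syvn1, the ubiquitin ligase that removes misfolded proteins, had the largest change of the list, from 9.1 ± 1.26 to 23.4 ± 2.37 FPKM (mean ± SD, n = 4 and 3, as for all such pairs of survivors; log2 change 1.28 ± 0.11 SE, adjusted p = 1.8e-05). Hyou1, the nucleotide exchange factor of BiP, went from 77.4 ± 0.783 to 187 ± 4.58 FPKM and the disulfide isomerase Pdia4 from 68.8 ± 2.9 to 157 ± 7.96 FPKM. The 3 sensors rose as well, Atf6 by 0.88, Ern1 by 0.90 and Eif2ak3 by 0.80 on the log2 scale. Herpud1 was the one member not called, at 0.40, and was called on the deposited FPKM without passage 1 survivor library 3 or 4 (adjusted p = 0.03 to 0.047).

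The endoplasmic reticulum stress element, which Atf6 and NF-Y are known to bind, reads CCAAT, 9 bases of any kind, then CCACG. RefSeq promoters on GRCm38.p6, 250 bases before to 50 after the start, were searched on both strands. The element was found in 8 of the 19 list members with a promoter in the table (42.1%), namely Calr, Canx, Creld2, Dnajc3, Hsp90b1, Hspa5, Pdia6 and Syvn1. It was found in 0.137% of all 27025 promoters and in 0.184% of the 8693 promoters of genes tested. A match is a description of letters in this window, and no factor was measured here. The promoters of Calr, Syvn1 and Hspa5 are shown 5′ to 3′ on the gene's strand because they carry the element and their genes are among the largest or best known of the group. Capitals mark the CCAAT and CCACG blocks, which read ATTGG and CGTGG where the match lies on the opposite strand.
Calr (chr8:84846882-84847181, minus strand): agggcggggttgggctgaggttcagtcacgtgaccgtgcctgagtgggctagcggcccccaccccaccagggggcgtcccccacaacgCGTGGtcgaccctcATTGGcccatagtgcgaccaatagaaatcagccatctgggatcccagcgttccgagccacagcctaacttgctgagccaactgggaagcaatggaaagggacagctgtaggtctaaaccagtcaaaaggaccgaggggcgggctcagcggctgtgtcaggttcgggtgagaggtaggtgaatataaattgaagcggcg
Syvn1 (chr19:6046326-6046625, plus strand): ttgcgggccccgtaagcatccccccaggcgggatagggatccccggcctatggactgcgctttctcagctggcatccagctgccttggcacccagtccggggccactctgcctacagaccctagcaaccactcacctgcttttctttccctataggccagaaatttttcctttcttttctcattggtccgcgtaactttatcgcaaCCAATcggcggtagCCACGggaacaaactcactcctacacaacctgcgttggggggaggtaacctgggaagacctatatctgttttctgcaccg
Hspa5 (chr2:34771840-34772139, plus strand): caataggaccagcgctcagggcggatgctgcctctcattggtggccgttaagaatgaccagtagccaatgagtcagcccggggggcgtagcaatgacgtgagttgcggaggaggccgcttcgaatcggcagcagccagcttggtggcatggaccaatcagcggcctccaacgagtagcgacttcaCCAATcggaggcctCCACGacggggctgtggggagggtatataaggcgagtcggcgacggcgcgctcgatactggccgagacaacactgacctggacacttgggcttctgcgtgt

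Dense-core granule genes rose, and Chgb had the largest rise among the genes named for size. Chgb, the granule core protein chromogranin B (chr2:132781278-132795079), was at 148, 132, 163 and 155 FPKM at passage 1 and 648, 631 and 562 FPKM at passage 6, a log2 change of 2.03 ± 0.09 SE (adjusted p = 6.9e-06). All 3 passage 6 libraries lay far above all 4 passage 1 libraries. In controls it went from 236 ± 7.82 to 561 ± 20.5 FPKM (mean ± SD, n = 3 each, as for all such pairs of controls), and the change was larger in survivors (difference 0.79 ± 0.10 SE, adjusted p = 0.00096). Vgf, a neuropeptide precursor, was at 191, 185, 229 and 204 FPKM at passage 1 and 644, 797 and 631 FPKM at passage 6, and its change did not differ by the test from that of controls (1.76 against 1.43, adjusted p = 0.091). Of the 16 genes of this list 13 rose and 2 fell, with a median of 0.93, against 13 and 2 in controls. The change lay above that of controls for 5 members and below it for 1. Those above included Cpe, the carboxypeptidase of prohormone processing (log2 1.27 against 0.74), Slc18a2, the vesicular monoamine transporter (1.47 against 0.97), Scg3 and Pcsk1n. The call of the difference of Slc18a2 was lost without passage 1 control library 2 or 3 or passage 6 control library 1, 2 or 3 or passage 6 survivor library 3 (adjusted p = 0.054 to 0.071). The members that fell make the transmitter rather than the granule. They were Th, which makes L-DOPA (8.64 ± 1.89 to 4.36 ± 0.960 FPKM), and Gch1, which makes its cofactor (18.5 ± 2.8 to 12.2 ± 0.885 FPKM), and neither was called without passage 6 libraries 2 and 3.

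Other genes were named for the size of their rise. Chrna3, a nicotinic receptor subunit, went from 11.9 ± 1.71 to 37 ± 1.57 FPKM (log2 change 1.56 ± 0.10 SE, adjusted p = 7.9e-06), and Grin1, the shared NMDA receptor subunit, from 2.45 ± 0.377 to 9.17 ± 1.74 FPKM. In controls the log2 changes were 1.09 and 1.28. The others were Lrrn4 (1.71), the anion exchanger Slc26a4 (1.51), the semaphorin Sema4b (1.5), the proprotein convertase Pcsk6 (1.48) and Smpdl3b (1.47). In the synapse list 7 of 19 rose and 1 fell, against 23.4% and 30.5% of all genes tested. The vesicle proteins Syp (1.26) and Sv2a (1.43) rose, and the vesicle phosphoprotein Syn2 fell (-0.49).

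Genes of the extracellular matrix, its assembly and its receptors rose. Among laminins and other basement membrane genes 9 of 12 rose and 1 fell (median 0.70), and among integrins 12 of 12 rose (median 0.77). Genes that hydroxylate and fold collagen rose in 15 of 19 (median 0.65). Without passage 6 libraries 2 and 3 the numbers that rose were 7, 11 and 12. Col4a1, a chain of basement membrane collagen, was at 51.3, 56.1, 57.4 and 52.3 FPKM at passage 1 and 122, 126 and 129 FPKM at passage 6 (log2 change 1.2 ± 0.06 SE, adjusted p = 6.9e-06). Itga6, a laminin receptor chain, went from 24.9 ± 3.63 to 52.5 ± 2.65 FPKM, and the lysyl hydroxylase Plod1 from 29.4 ± 2.15 to 75.6 ± 3.61 FPKM. Controls rose further in the basement membrane list, at a median of 1.4, and 9 of 12 members rose less or fell more in survivors. Lamb2, a laminin beta chain, rose by 0.38 in survivors and 1.61 in controls (difference -1.23 ± 0.17 SE, adjusted p = 0.001), with the call in survivors lost without passage 6 survivor library 3 (adjusted p = 0.076). Lama5, a laminin alpha chain, was not called in survivors (0.38) and changed by 1.88 in controls (difference -1.5 ± 0.20 SE, adjusted p = 0.001). The oxygen-dependent prolyl and lysyl hydroxylases P4ha1 (0.23 against 1.38) and Plod2 (0.20 against 1.26) also differed. On the deposited FPKM, Lama5 was called in survivors without passage 1 library 3 or passage 6 library 1, and P4ha1 and Plod2 without passage 1 library 3. In contrast Colgalt1, the collagen galactosyltransferase, rose more in survivors (1.33 against 0.99), a call lost without passage 1 control library 3 (adjusted p = 0.052).

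Semaphorin receptors and other axon guidance genes, cues among them, rose in 14 of 15 (median 0.86, controls 0.77). Plxnc1, a semaphorin receptor, was at 3.39, 3.9, 3.83 and 3.6 FPKM at passage 1 and 11.5, 11.1 and 11.2 FPKM at passage 6, and its rise exceeded that of controls (difference 1.12 ± 0.07 SE, adjusted p = 1e-05). All passage 6 values lay above all passage 1 values. Plxna3 rose by 1.01 and the secreted cue Slit2 by 0.98. Wnt pathway genes rose in 12 of 17, among them the receptor Lgr5 (1.24) and the coreceptor Lrp6 (0.61), while Ctnnb1, the transcriptional effector beta-catenin, fell (-0.55). Zinc transporters and metallothioneins rose in 12 of 17. Slc39a10, a zinc importer, rose by 1.26, and the metallothionein Mt3 was at 1.12, 0.283, 0.791 and 0.689 FPKM and then 0.863, 9.96 and 8.13 FPKM, with passage 6 libraries 2 and 3 highest.

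**Figure D4:**
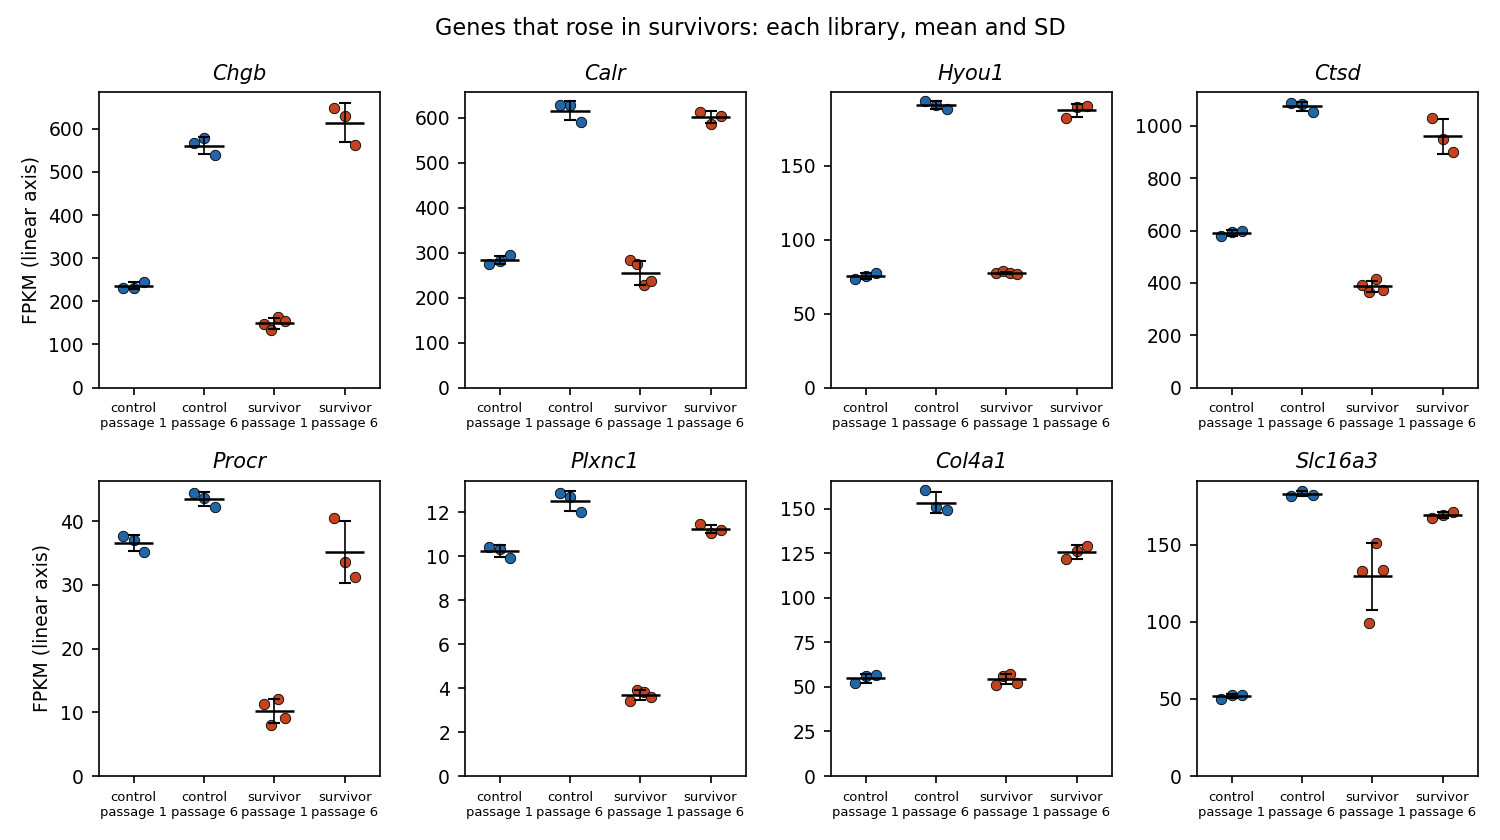
FPKM (linear axes from 0) of Chgb, Calr, Hyou1, Ctsd, Procr, Plxnc1, Col4a1 and Slc16a3, with 1 point per library, a bar at the mean and error bars of 1 SD, controls in blue and survivors in red. The passage 6 survivor points lie above the passage 1 survivor points in each panel.

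All 15 mitochondrially encoded genes tested rose (15 of 15, and 15 without passage 6 libraries 2 and 3), as did all 15 in controls. The share of FPKM from these genes was 14.8, 14.1, 12.4 and 13.7% at passage 1 and 26.9, 25.9 and 25.3% at passage 6, or 13.7 ± 1.04% and 26 ± 0.841% (mean ± SD, n = 4 and 3). The groups did not overlap, and the two-sided exact permutation p was 0.0571, the smallest that 35 splits allow (adjusted p = 0.114 over 14 library measures). In controls the share was 14.8 ± 0.128% and 27.5 ± 0.206% (n = 3 each). The rises ranged from 0.66 for mt-Nd6, a complex I subunit on the light strand, to 1.27 for mt-Rnr1, the small ribosomal RNA. mt-Co1, the catalytic subunit of complex IV, was at 5025, 4772, 4175 and 4811 FPKM at passage 1 and 10761, 10699 and 9053 FPKM at passage 6 (log2 change 1.11 ± 0.11 SE, adjusted p = 3.2e-05), and mt-Cytb of complex III rose by 1.12. After quantile normalization, which gives all libraries the same distribution of values, these rises were largely lost for the protein-coding members named here. The log2 change was then 0.0177 for mt-Co1, -0.0554 for mt-Cytb and 0.191 for mt-Nd6, and 0 of the 3 were called, while that of mt-Rnr1 was 1.5.

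Nuclear genes of the same respiratory complexes went the other way. Of 42 tested, 26 fell and 1 rose (median -0.63, controls -0.62), and 12 fell without passage 6 libraries 2 and 3. Cycs, the electron carrier cytochrome c, went from 53.1 ± 6.0 to 22.6 ± 2.99 FPKM (log2 change -1.2 ± 0.11 SE, adjusted p = 2.8e-05), and Uqcrb of complex III from 87.3 ± 9.57 to 39.7 ± 9.04 FPKM. The member that rose was Cox6a1 (0.44). Among genes that maintain and express mitochondrial DNA 3 of 20 rose and 7 fell (3 and 1 without those libraries). With all libraries the share that fell was near the 30.5% of all genes tested, and the share that rose was below their 23.4%. Polrmt, the mitochondrial RNA polymerase, rose by 0.94, whereas its packaging and initiation factors Tfam (-0.51) and Tfb2m (-0.58) fell.

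Ribosomal protein and proteasome genes fell, with 39 and 30 members lower in controls. Of 51 cytosolic ribosomal protein genes 43 fell and 0 rose (median -0.79, controls -0.74), and of 31 proteasome genes 27 fell and 0 rose (median -0.80, controls -0.80). Without passage 6 libraries 2 and 3, 32 and 19 fell. Rpl22 went from 116 ± 7.01 to 48 ± 9.86 FPKM (log2 change -1.27 ± 0.12 SE, adjusted p = 2.8e-05) and Rpl32 from 522 ± 27.1 to 221 ± 48.6 FPKM. Psme2, an activator subunit of the proteasome, went from 28.5 ± 3.04 to 9.36 ± 3.92 FPKM and the catalytic subunit Psmb7 from 53.6 ± 3.91 to 25.2 ± 4.82 FPKM. Ribosomal proteins made up 6.41 ± 0.105% of nuclear FPKM at passage 1 and 4.17 ± 0.380% at passage 6. Counts of ribosomal protein genes are uncertain where reads can match processed pseudogenes. Transcript length and GC content moved with these results, and their part was not tested beyond the centring given here. The median log2 change was -0.45, -0.27, -0.17 and -0.05 from the shortest to the longest of 4 equal groups of genes (-0.49 to 0.00 in controls). Over 4 equal groups from the lowest to the highest GC content of the transcript it was -0.33, -0.28, -0.19 and -0.03, with 39.3% and 19.8% of genes falling in the lowest and highest group. Passage 6 libraries 2 and 3 minus library 1 also ran with GC content, from a median of -0.10 to 0.10 on the log2 scale. The median lengths of the ribosomal, proteasome, respiratory and annexin lists were 1232, 1819, 1232 and 1127 bases, against 3037 over all genes tested. When each gene was centred on genes of similar length, a setting added after the data were seen, 35 ribosomal protein genes fell and 4 rose on the deposited FPKM, 20 respiratory genes fell and 4 rose, and 27 proteasome genes fell. By the same centring 23 endoplasmic reticulum genes and 15 mitochondrially encoded genes rose and 20 immediate early genes fell. Centring on genes of similar GC content left 47 ribosomal protein, 32 respiratory, 29 proteasome and 21 immediate early genes that fell and 23 endoplasmic reticulum and 15 mitochondrially encoded genes that rose.

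Chaperones outside the endoplasmic reticulum did not follow those inside it. Of 23 cytosolic and mitochondrial chaperone genes 13 fell and 1 rose (median -0.56). Dnajb6, a cytosolic cochaperone, went from 24.4 ± 0.504 to 11.2 ± 0.815 FPKM and Hspe1, the mitochondrial cochaperonin, from 76.1 ± 6.95 to 34.2 ± 7.38 FPKM. The member that rose was the heat shock factor Hsf1 (0.25), whose call was lost without passage 1 survivor library 2, 3 or 4 or passage 6 survivor library 2 or 3 (adjusted p = 0.07 to 0.12). The abundant chaperones Hspa8 (-0.16 against -0.71 in controls) and Hsp90aa1 (-0.34 against -0.82) were not called in survivors, and their changes lay above those of controls by the test of the difference. Genes of the antioxidant NRF2 pathway, glutathione and iron fell in 16 of 30, including the peroxide scavengers Prdx1 (-1.12) and Prdx2 (-1.09) and the thioredoxin Txn1 (-1.26). The transferrin receptor Tfrc (0.94) and the cystine transporter Slc7a11 (0.44) rose. Genes of p53 and apoptosis fell in 14 of 24 with 0 rising, among them the pore former Bak1 (-0.95) and the cell cycle inhibitor Cdkn1a (-0.68). Without passage 6 libraries 2 and 3 these 3 lists had 8, 12 and 6 members that fell. Translation factors fell in 12 of 21, with Eif2s2 at -1.12 and the cap-binding Eif4e at -1.05.

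Hypoxia and glycolysis genes were among the largest falls. Bnip3, a mitophagy receptor induced by hypoxia (chr7:138890836-138909519), was at 60.7, 28.7, 92.7 and 70.4 FPKM at passage 1 and 8.09, 6.9 and 7.99 FPKM at passage 6 (log2 change -2.78 ± 0.32 SE, adjusted p = 8.1e-05). All 3 passage 6 values lay below the lowest passage 1 value, although passage 1 was uneven, with library 2 lowest and library 3 highest. In controls Bnip3 went from 16.3 ± 0.932 to 12.7 ± 1.02 FPKM, and the changes differed by -2.44 ± 0.40 SE, adjusted p = 0.0028. Of the 22 genes of the hypoxia-inducible factor list 12 fell and 1 rose (median -0.58, controls -0.14 with 7 higher and 4 lower), and 7 fell and 1 rose without passage 6 libraries 2 and 3. The change was below that of controls in 11 and above it in 2, and without those libraries in 4 and 0. Bnip3l, the related receptor, went from 23 ± 6.69 to 6.83 ± 0.295 FPKM, Higd1a from 10.7 ± 1.83 to 3.25 ± 0.361 FPKM, and Ankrd37 from 8.43 ± 4.5 to 2.27 ± 0.301 FPKM. The member that rose was the secreted glycoprotein Stc2 (1.01). Adm, the vasodilator adrenomedullin, was not called in survivors (-0.05) and changed by 1.03 in controls (difference -1.08 ± 0.32 SE, adjusted p = 0.042), and the call of the difference was lost without passage 1 control library 1, 2 or 3 or passage 1 survivor library 4 or passage 6 control library 1, 2 or 3 or passage 6 survivor library 1 or 3 (adjusted p = 0.068 to 0.098). Related genes among the largest falls were Fam162a (-2.04), Cox4i2, the hypoxic isoform of a complex IV subunit (-1.87), and Selenbp1 (-1.9).

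In glycolysis 12 of 23 genes fell and 3 rose (median -0.54, controls -0.21), and 9 fell without passage 6 libraries 2 and 3. Pgk1, phosphoglycerate kinase, was at 328, 228, 433 and 356 FPKM at passage 1 and 99.5, 83.8 and 82.6 FPKM at passage 6 (log2 change -1.88 ± 0.19 SE, adjusted p = 3.7e-05), against 168 ± 0.391 to 112 ± 0.249 FPKM in controls (difference -1.29 ± 0.23 SE, adjusted p = 0.0038). The groups of survivors did not overlap, and passage 1 library 2 was again the lowest of its group. Tpi1, triosephosphate isomerase, went from 317 ± 63.8 to 93.5 ± 3.88 FPKM, the mutase Pgam1 from 351 ± 49.6 to 131 ± 3.35 FPKM, and the lactate dehydrogenase Ldha from 576 ± 63.1 to 244 ± 4.29 FPKM. Aldoa and Eno1 fell by 1.23 and 1.2 on the log2 scale. The members that rose carry sugar or lactate across the membrane. They were the glucose transporter Slc2a1 (0.50 against 1.56 in controls) and the lactate transporters Slc16a3 (0.40 against 1.8) and Slc16a1 (0.97 against 0.79). Slc2a1 and Slc16a3 rose less than in controls (differences -1.06 and -1.4), and neither was called in survivors without passage 6 libraries 2 and 3 together. The call of Slc2a1 was lost without passage 1 survivor library 1, 2 or 4 or passage 6 survivor library 1, 2 or 3 (adjusted p = 0.061 to 0.11), and that of Slc16a3 was lost without passage 6 survivor library 3 (adjusted p = 0.054). In all, 14 members of the list lay below controls in the difference and 0 above, against 8 and 0 without passage 6 survivor libraries 2 and 3. Gapdh, often taken as a stable reference, was not called (-0.21), but was on the deposited FPKM without passage 1 survivor library 2 (adjusted p = 0.028).

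The core of the hypoxia response element, ACGTG or GCGTG on either strand, is short and common. It lay in 16 of 19 promoters of the hypoxia list (84.2%) and 19 of 22 of glycolysis (86.4%), against 68.8% of the promoters of genes tested and 46.7% of all promoters in the table. The promoters of Bnip3, with 5 matches, and Pgk1, with 2, are shown because these genes fell most in their lists. Capitals mark the cores, read as CACGT or CACGC where they lie on the opposite strand.
Bnip3 (chr7:138909457-138909756, minus strand): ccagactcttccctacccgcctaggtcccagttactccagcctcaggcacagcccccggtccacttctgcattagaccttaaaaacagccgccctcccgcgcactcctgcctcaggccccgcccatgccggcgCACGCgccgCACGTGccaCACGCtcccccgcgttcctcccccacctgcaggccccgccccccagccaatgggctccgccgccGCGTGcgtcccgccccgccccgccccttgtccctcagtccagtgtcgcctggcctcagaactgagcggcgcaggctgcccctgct
Pgk1 (chrX:106186850-106187149, plus strand): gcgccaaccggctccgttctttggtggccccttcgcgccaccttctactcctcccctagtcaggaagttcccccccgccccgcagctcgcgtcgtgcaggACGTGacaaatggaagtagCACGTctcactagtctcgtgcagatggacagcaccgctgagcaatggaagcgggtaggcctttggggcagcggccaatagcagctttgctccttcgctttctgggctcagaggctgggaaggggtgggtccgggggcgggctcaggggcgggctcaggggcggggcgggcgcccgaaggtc

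Contractile actin and myosin genes fell in 14 of 19 and rose in 3 (median -1.12, controls -0.40), with 14 falling and 0 rising without passage 6 libraries 2 and 3. Myl9, a myosin regulatory light chain, was at 62.5, 54.7, 51.2 and 54.2 FPKM at passage 1 and 9.99, 11.2 and 12.4 FPKM at passage 6 (log2 change -2.22 ± 0.09 SE, adjusted p = 6.9e-06), against 5.72 ± 0.506 to 2.36 ± 0.547 FPKM in controls (difference -1.21 ± 0.15 SE, adjusted p = 0.00091). Survivor passages did not overlap. Acta2, smooth muscle actin, was at 224, 216, 194 and 217 FPKM at passage 1 and 85.4, 82.7 and 95.3 FPKM at passage 6 (log2 change -1.27 ± 0.08 SE, adjusted p = 7.5e-06). Actg2 went from 12.8 ± 1.93 to 4.12 ± 1.08 FPKM and Acta1 from 4.96 ± 0.423 to 1.33 ± 0.120 FPKM, but actin genes are near-identical in sequence and reads may be split between them. The change lay below that of controls for 11 members, 7 without passage 6 survivor libraries 2 and 3. Vcl, which links actin to adhesions, rose by 0.52 in survivors, a call lost without passage 6 survivor library 3 (adjusted p = 0.053), and by 1.15 in controls. Myl12b (-1.69) and Cavin1, a coat protein of caveolae (-1.81), were also among the largest falls. Annexins and S100 proteins, which bind calcium at membranes, fell in 9 of 13 with 0 rising. Anxa2, annexin A2, was at 61.8, 46.8, 76.5 and 63 FPKM at passage 1 and 14.5, 13 and 12.5 FPKM at passage 6 (log2 change -2.12 ± 0.14 SE, adjusted p = 9e-06; difference from controls -1.74 ± 0.18 SE, adjusted p = 0.00028), and its partner S100a10 went from 138 ± 9.83 to 45.2 ± 7.64 FPKM. Every passage 6 value of Anxa2 was below every passage 1 value.

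Immediate early genes, which serum induces, fell. Of 26 immediate early genes 20 fell and 0 rose (median -0.88), against 7 and 4 in controls (median -0.37), and 12 changes lay below those of controls. With passage 6 libraries 2 and 3 left out, 11 fell. Egr2, a zinc finger factor, was at 10.6, 7.27, 12.7 and 13.3 FPKM at passage 1 and 3.4, 2.78 and 2.74 FPKM at passage 6 (log2 change -1.56 ± 0.18 SE, adjusted p = 6.7e-05), and Fosb, an AP-1 subunit, at 3.25, 2.84, 4.89 and 5.17 FPKM at passage 1 and 1.1, 0.518 and 0.776 FPKM at passage 6 (log2 change -1.47 ± 0.19 SE, adjusted p = 0.00013). All passage 6 values of both lay below all passage 1 values, of which library 2 was the lowest. Atf3 (24.8 ± 12.1 to 9.23 ± 0.943 FPKM) and Maff (20.9 ± 3.7 to 8.4 ± 0.677 FPKM) fell too, while Jun (-0.30) was not called. Feedback inhibitors and targets of ERK fell in 12 of 19 and rose in 1 (median -0.70, controls -0.26). Dusp6, the ERK phosphatase, went from 48.9 ± 3.24 to 19.4 ± 0.652 FPKM and Spry2, an inhibitor of receptor signalling, from 25.3 ± 1.66 to 12.8 ± 0.568 FPKM. Lrig1, which restrains ErbB receptors, rose by 0.75. In the YAP and TEAD list 5 of 12 fell, among them the coactivator Wwtr1 (-1.1 against -0.09 in controls) and Tead2 (-0.77 against -0.06), and Tgfb2 rose (0.73). Among cytokine and NF-kB genes 5 of 17 fell (2 without passage 6 libraries 2 and 3), a share near the 30.5% of all genes tested. They included the inhibitors Nfkbia (-0.91) and Tnfaip3 (-0.70), and Csf1 rose (0.48).

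Mitosis genes fell in 24 of 32 and rose in 2 (median -0.65, controls -0.36 with 14 lower). Passage 6 libraries 2 and 3 aside, 14 fell. Cks2, a cyclin-dependent kinase subunit, was at 63.7, 56.9, 48.8 and 55.4 FPKM at passage 1 and 24.4, 14 and 14.8 FPKM at passage 6 (log2 change -1.65 ± 0.18 SE, adjusted p = 5.1e-05), with no overlap. Ube2c, which marks cyclins for degradation, went from 60.3 ± 5.05 to 25.5 ± 1.23 FPKM, the spindle protein Nusap1 from 16.9 ± 0.985 to 7.08 ± 0.419 FPKM and the kinase Cdk1 from 62 ± 7.12 to 31.2 ± 3.51 FPKM. Changes lay below those of controls for 15 members with all libraries and for 6 without passage 6 libraries 2 and 3. Mki67, the proliferation antigen, and Racgap1, a cytokinesis regulator, rose by 0.33 and 0.26. In the replication list 8 of 34 fell and 1 rose, but 1 and 0 when passage 6 libraries 2 and 3 were left out. With all libraries 23.5% of the replication list fell, below the 30.5% of all genes tested. The repair and chromatin lists that follow, at 17.9% and 23.3%, were below it as well. Pcna, the replication clamp, fell by 0.85 on the log2 scale. In DNA damage signalling and repair 5 of 28 fell and 2 rose (2 and 1 without those libraries). Of chromatin genes 7 of 30 fell and 2 rose (5 and 0 without them), and Ezh2, the histone methyltransferase of Polycomb, fell by 0.98.

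**Figure D5:**
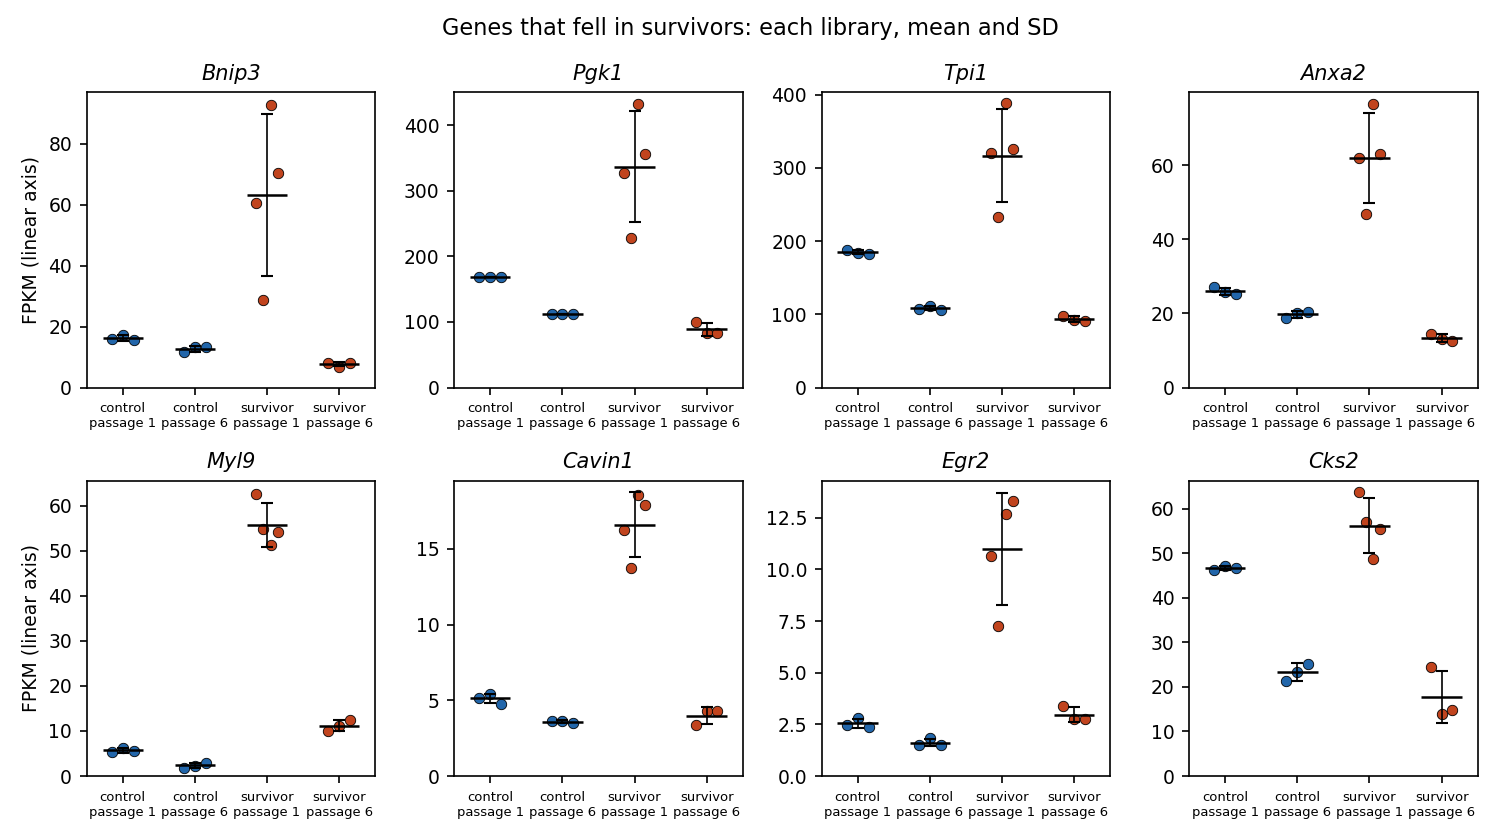
FPKM (linear axes from 0) of Bnip3, Pgk1, Tpi1, Anxa2, Myl9, Cavin1, Egr2 and Cks2, with 1 point per library, a bar at the mean and error bars of 1 SD, controls in blue and survivors in red. Passage 6 survivor points lie below passage 1 survivor points in each panel.

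In the list of lysosomal and autophagy genes 18 of 30 rose and 8 fell (median 0.81, controls 0.33), and 14 changes lay above those of controls. Leaving out passage 6 survivor libraries 2 and 3 gave 18 that rose, 5 that fell and 13 above controls. Gaa, acid alpha-glucosidase, was at 63.2, 59.9, 76 and 65.2 FPKM at passage 1 and 185, 207 and 189 FPKM at passage 6 (log2 change 1.54 ± 0.09 SE, adjusted p = 6.9e-06; difference from controls 0.49 ± 0.10 SE, adjusted p = 0.0092). Its groups did not overlap. Ctsd, cathepsin D, went from 387 ± 22.2 to 961 ± 67 FPKM, Grn, progranulin, from 65.4 ± 4.19 to 163 ± 9.48 FPKM, and Ctsa from 35.3 ± 0.870 to 85.6 ± 6.18 FPKM. Those that fell included the autophagosome proteins Gabarapl2 (-1.32) and Map1lc3b (-0.72) and the cargo receptor Sqstm1 (-0.67), and controls fell there as well (-1.14, -0.79 and -0.75).

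Of 27 genes of cholesterol synthesis and uptake 13 rose and 7 fell (median 0.13), against 7 and 11 in controls (median -0.35). The members that fell were the mevalonate branch enzymes Hmgcs1 (-1.37), Idi1 (-1.47), Fdps (-0.95), Pmvk, Mvd and Fdft1, and the sterol carrier Stard4. Those that rose included Scap, the sterol sensor (15.4 ± 0.924 to 37.3 ± 3.94 FPKM), and Srebf1, the factor it escorts (54.9 ± 7.11 to 126 ± 19.6 FPKM). Changes lay above those of controls for 13 members and below for 0, or 7 and 0 without passage 6 survivor libraries 2 and 3. Idi1 fell by 1.47 in survivors and 2.03 in controls, and the call of that difference was lost in 11 of the 13 fits that left out 1 library (adjusted p up to 0.095). In fatty acid metabolism 9 of 21 rose and 5 fell, and the desaturase Fads2 rose by 0.87 in survivors against -0.00 in controls (difference 0.87 ± 0.11 SE, adjusted p = 0.00096). When passage 6 libraries 2 and 3 were dropped, 8 sterol and 7 fatty acid genes rose.

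Blood-lineage genes were few, with 4 of 8 rising and 0 falling in survivors, against 1 and 4 in controls. The list was drawn up with the passage 1 gap between survivors and controls known, so this direction is not independent evidence. Procr, the endothelial protein C receptor, was at 11.4, 8.08, 12.1 and 9.14 FPKM at passage 1 and 40.6, 33.6 and 31.2 FPKM at passage 6 (log2 change 1.7 ± 0.14 SE, adjusted p = 1.6e-05). In controls it was at 37.7, 37 and 35.2 FPKM at passage 1 and 44.5, 43.7 and 42.3 FPKM at passage 6, so its low level was that of the passage 1 survivors (difference 1.46 ± 0.17 SE, adjusted p = 0.00057). Grap2, an adaptor of T cell signalling, rose by 0.37 in survivors, a call lost without passage 1 survivor library 2 or 4 or passage 6 survivor library 1 or 3 (adjusted p = 0.055 to 0.12), and changed by -0.62 in controls. The factor Myb rose by 0.37 in survivors and changed by -0.73 in controls. The change lay above that of controls for 6 members with all libraries and 6 without passage 6 survivor libraries 2 and 3. Of the separate list of 15 markers of mature blood and immune cells 5 passed the filter, and the sum of the whole list was 59.99, 34.5, 34.4 and 34.6 FPKM at passage 1 and 43.6, 77.8 and 69.3 FPKM at passage 6. Much of that sum was Cd74, at 19.98, 14.9, 33.8 and 30.2 FPKM at passage 1 and 39.7, 48.96 and 45.5 FPKM at passage 6. In controls Cd74 was at 21.8, 21.7 and 20.7 FPKM at passage 1 and 45.4, 41.8 and 43.6 FPKM at passage 6. The sum therefore need not follow the other blood transcripts. The globin Hba-a1 was at 9.36, 4.91, 0 and 1.03 FPKM and then 1.11, 8.35 and 6.15 FPKM, Hbb-bs at 14.3, 6.29, 0 and 1.26 and 0.789, 7.51 and 5.66 FPKM, and the lysozyme Lyz2 of myeloid cells at 0.814, 0.554, 0.0908 and 0.0604 and 0.394, 2.18 and 1.92 FPKM. These transcripts were uneven at passage 1 and higher in passage 6 libraries 2 and 3 than in library 1. Ptprc, which defines white blood cells, was at 0.0404, 0.0232, 0 and 0.0102 FPKM at passage 1 and 0.0196, 0.00760 and 0 FPKM at passage 6, and Ms4a1, a marker of B cells, was at 0 in all 7 libraries. Their part in the blood-lineage values was not tested.

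In the list of neuroblastoma core factors 5 of 17 rose and 6 fell, shares near the 23.4% and 30.5% of all genes tested. With passage 6 libraries 2 and 3 left out the numbers were 4 and 3. Those that rose included the receptors Ret (108 ± 6.8 to 227 ± 11.8 FPKM), Ngfr (64.8 ± 5.64 to 132 ± 11 FPKM) and Alk (0.75). Those that fell included the transcription factors Mycn (14.5 ± 0.510 to 8.24 ± 1.71 FPKM), Phox2a (-1.09), Isl1 (-0.77) and Hand2 (-0.64). The Mycn change differed from that of controls (0.06; difference -0.82 ± 0.17 SE, adjusted p = 0.0074). Of neuronal cytoskeleton genes 9 of 23 fell, with Basp1 at -1.27 and Stmn1 at -1.18, and 3 rose. Nefh, the heavy neurofilament, rose by 0.56 in survivors against -0.64 in controls (difference 1.2 ± 0.11 SE, adjusted p = 0.0002).

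Amino acid genes under the stress factor ATF4 rose in 7 of 30 and fell in 10, shares near those of all genes tested (23.4% and 30.5%). With passage 6 libraries 2 and 3 left out, 6 rose and 4 fell. All that rose were amino acid transporters or their shared chain, including Slc7a3 (13.7 ± 3.09 to 38.7 ± 2.1 FPKM), Slc38a2 (61.7 ± 11 to 148 ± 15.2 FPKM) and Slc7a5 (266 ± 39.6 to 612 ± 60.1 FPKM). Atf4 itself (-0.97) and its partners or targets Ddit3 (-1.21), Nupr1 (-1.13) and Chac1 (-0.99) fell. Cebpb was at 22.2, 19.99, 30.5 and 26.3 FPKM at passage 1 and 14.4, 0.821 and 1.23 FPKM at passage 6 (log2 change -2.68 ± 0.63 SE, adjusted p = 0.0045), low mainly in passage 6 libraries 2 and 3, and without them its log2 change was -0.73. In the insulin-like growth factor list 6 of 12 rose, such as the receptor Igf1r (0.79), and Igfbp2, a binding protein, fell (-0.74 against 0.51 in controls). TGF-beta and BMP genes rose in 9 of 18 and fell in 4, with the latent binding protein Ltbp4 at 1.25 and the mediator Smad4 at -0.60, and 2 fell without passage 6 libraries 2 and 3. Mesenchymal and matrix genes rose in 7 of 15 and fell in 3, and 3 rose without those libraries. Interferon and antigen presentation genes rose in 6 of 16 and fell in 3, with the class I chain H2-D1 at 1.04 and the ubiquitin-like Isg15 at -1.03, and 1 fell without those libraries. Cold-inducible and splicing genes rose in 6 of 24 and fell in 8, or 4 and 3 without them. With all libraries 25.0% of this list rose and 33.3% fell, near the 23.4% and 30.5% of all genes tested. Rbm3, the cold-inducible RNA-binding protein, went from 106 ± 13.4 to 51.2 ± 4.81 FPKM in survivors and fell by 1.02 in controls. For comparison with the smaller lists, 23.4% of all genes tested rose and 30.5% fell. In those lists the numbers that rose and fell were 3 and 3 of 10 Notch genes, 5 and 0 of 9 nuclear noncoding RNAs, 3 and 1 of 12 imprinted genes, 0 and 4 of 16 clock genes and 0 and 2 of 6 replication-dependent histones. Leaving out passage 6 libraries 2 and 3, the numbers that fell were 1, 0, 1, 1 and 1 in the same order.

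The genes with changes unlike those of controls reached passage 6 from different starting levels, which can be read within each deposited table. Anxa2 had 62 ± 12.1 FPKM in survivors and 26 ± 0.994 FPKM in controls at passage 1, and 13.3 ± 1.09 FPKM and 19.7 ± 0.900 FPKM at passage 6 (mean ± SD, n = 4 and 3, then 3 and 3). Like Bnip3 and Pgk1, it was above controls in the mean at passage 1 and below them at passage 6. Acta2 had 213 ± 13.3 FPKM in survivors and 12.7 ± 2.3 FPKM in controls at passage 1, and 87.8 ± 6.66 FPKM and 8.2 ± 2.36 FPKM at passage 6, and Myl9 55.7 ± 4.82 FPKM in survivors and 5.72 ± 0.506 FPKM in controls at passage 1, and 11.2 ± 1.19 FPKM and 2.36 ± 0.547 FPKM at passage 6. These contractile genes fell in survivors but kept a mean above that of controls at passage 6. Slc16a3 had 129 ± 21.7 FPKM in survivors and 51.8 ± 1.43 FPKM in controls at passage 1, and 169 ± 1.98 FPKM and 183 ± 1.64 FPKM at passage 6, so the controls covered the larger distance. Plxnc1 and Procr were the reverse of Anxa2 at passage 1, with survivors below controls, and at passage 6 Plxnc1 was at 11.2 ± 0.198 FPKM in survivors and 12.5 ± 0.449 FPKM in controls. The gap between survivors and controls within a passage was not tested here.

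Other genes named for the size of the difference from controls were the following. Above controls were Clu, the chaperone clusterin (1.42 against 0.26), Ntng2, netrin G2 (0.82 against -0.23), Tmem179 (0.77 against -0.29) and Sparcl1, a matrix protein (1.35 against -0.26). Sparcl1 was at 4.95, 4.68, 5.26 and 5.35 FPKM at passage 1 and 7.99, 21 and 17.6 FPKM at passage 6, high mainly in passage 6 libraries 2 and 3. Below controls were Selenbp1 (-1.9 against 0.05), Cox4i2 (-1.87 against -0.10) and Mgarp, a mitochondrial protein (-1.11 against 0.46). H1fx, Timp1 and Apoe, by contrast, were not named for that difference. H1fx, a linker histone, was at 83.8, 83.4, 78.9 and 86.7 FPKM at passage 1 and 49.4, 18.3 and 14 FPKM at passage 6 (log2 -1.78) and was lowest in passage 6 libraries 2 and 3. Timp1, a metalloproteinase inhibitor, was at 2.14, 2.01, 2.08 and 0.864 FPKM and then 1.82, 11.4 and 9.42 FPKM. Its call on the deposited FPKM was lost without passage 1 survivor library 4 or passage 6 survivor library 2 or 3 (adjusted p = 0.055 to 0.096). The lipid carrier Apoe was at 6.5, 4.57, 3.49 and 3.26 FPKM and 10.04, 66.1 and 53.6 FPKM, highest in the libraries with liver and fibroblast transcripts.

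The 10 nuclear protein-coding genes with the highest mean FPKM over the 7 libraries were Eef1a1, Hsp90ab1, Actg1, Tuba1a, Rplp0, Eef2, Rpl8, Ftl1, Ptma and Actb. Of these 7 fell, among them the elongation factor Eef1a1 (3326 ± 127 to 2271 ± 93.5 FPKM) and the actin Actb (1030.1 ± 18.9 to 651 ± 59.9 FPKM), while Hsp90ab1, Tuba1a and Eef2 were not called. Together they made up 5.1 ± 0.139% of nuclear FPKM at passage 1 and 3.66 ± 0.120% at passage 6.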

How the data were processed

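RNA-seq of Neuro2a cells was measured in 13 libraries, of which the 7 of survivors were compared between passages (3 at passage 6, 4 at passage 1) and the 6 control libraries served for the difference. The authors deposited FPKM in 1 table per passage. The submitters' processing notes name cutadapt, HISAT2, StringTie, DESeq2, edgeR and mm10, without versions, and the scaling between libraries is not given in the sources used here. FPKM hold no read counts, so depth is unknown and precision rests on the spread between libraries.

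The tables hold 34857 shared Ensembl identifiers, and 1 gene with an empty cell was left out. Genes reaching 1 FPKM in 3 or more of the libraries fitted were tested on log2(FPKM + 1) with limma 3.58.1 (intensity trend, two-sided) in R 4.3.3, adjusted by Benjamini-Hochberg at a threshold of 0.05. The fit was repeated after median-of-ratios scaling. The difference was a contrast over 4 group means. Library measures were tested by exact permutation over 35 splits. On simulated data 200 genes with a mean above about 5 FPKM were changed. The survivors' fit recovered 60% of changes of 0.5 and 97% of changes of 1 on the log2 scale. False calls were 3.68% of the genes called. The simulated noise was independent between genes, with no shift between libraries, so these rates need not hold for the measured data. Python 3.11.15, numpy 2.4.6, pandas 2.3.3, scipy 1.17.1 and matplotlib 3.10.9 were used.

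The genes, lists and tests were chosen with earlier results of these data known. The text names the 12 largest changes per direction that held in every fit leaving out 1 library, had a mean of at least 5 FPKM and did not overlap, up to 4 called genes per list, the 8 largest differences per direction, mitochondrial genes, markers and the 10 most abundant genes. Other members were named after their values were seen, and some genes under these rules are not reported here. Alternatives were pseudocounts, filters, scalings, limma settings, library weights, a replicate block, leaving out libraries, and centring by transcript length or GC content, the last chosen after seeing the data. Same-numbered survivor libraries of both passages had residual correlations of 0.0956, -0.0857 and 0.283, and same-numbered controls 0.0839, 0.0618 and 0.223. These do not settle whether the numbers are pairs. The main fits did not treat them as pairs, and the replicate block did.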

Additional observations from a re-analysis of the deposited data

Results flagged for a closer look

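Among the 4 passage 1 survivor libraries, 9 of 206 measures held 1 library far from the others, judged by its gap to the nearest library as a share of the whole range. Chance gives such a value in about 1 of 20 groups, and 9 of 206 is not above that share. The measures, with the library and that share, were Ftl1 (library 2 low, 0.922), Myb (library 4 low, 0.944), Pdia6 (library 2 low, 0.962), Rplp0 (library 3 high, 0.880), Stc2 (library 3 high, 0.935), Timp1 (library 4 low, 0.903), Txn1 (library 3 low, 0.884), the blood and immune marker sum (library 1 high, 0.993) and the neuroblastoma marker sum (library 2 low, 0.854). A flagged gap can be small in FPKM, as for Rplp0, at 1261, 1259, 1296 and 1263 FPKM in the passage 1 survivor libraries.

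The change between the passages differed between survivors and controls for 1914 genes on the deposited FPKM, by the limma contrast over all 13 libraries. Values are the log2 change of survivors minus that of controls for the genes named in the text. Genes with a value above 0 were led by Sparcl1 1.61, Procr 1.46, Nefh 1.2, Clu 1.17, Plxnc1 1.12, Myb 1.1, Ntng2 1.06, Tmem179 1.05, Grap2 1.0, Slc26a4 0.92, Fads2 0.87 and Ctsa 0.80. Smaller positive values were those of Smpdl3b 0.79, Chgb 0.79, Pcsk1n 0.78, Mvd 0.66, Fdps 0.66, Grn 0.63, Idi1 0.55, Hspa8 0.55, Fdft1 0.54, Sv2a 0.53, Cpe 0.53, Syn2 0.52, Slc18a2 0.50 and Gaa 0.49. Still smaller ones were those of Chrna3 0.48, Hsp90aa1 0.48, Stc2 0.46, Ctsd 0.45, Scap 0.40, Hsp90ab1 0.40, Colgalt1 0.35, Scg3 0.31 and Tgfb2 0.26.

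Genes with a value below 0 were led by Bnip3 -2.44, Selenbp1 -1.95, Cox4i2 -1.76, Anxa2 -1.74, Mgarp -1.57, Ankrd37 -1.53, Lama5 -1.5, Slc16a3 -1.4, Cavin1 -1.4, Pgk1 -1.29, Fosb -1.28 and Igfbp2 -1.25. Values nearer 0 were those of Fam162a -1.23, Lamb2 -1.23, Myl9 -1.21, Acta1 -1.19, P4ha1 -1.15, Egr2 -1.12, Actg2 -1.11, Adm -1.08, Slc2a1 -1.06, Plod2 -1.06, Wwtr1 -1.0, Tpi1 -0.96, Bnip3l -0.94 and Spry2 -0.92. These were followed by Myl12b -0.82, Mycn -0.82, Higd1a -0.76, Eno1 -0.75, Pgam1 -0.75, Tead2 -0.71, Aldoa -0.70, Acta2 -0.67, Nfkbia -0.66, Ldha -0.65, Vcl -0.63, Slc38a2 -0.63, Maff -0.57 and Jun -0.53. After these came Atf4 -0.52, Dusp6 -0.51, Tnfaip3 -0.49, S100a10 -0.48, Cdk1 -0.45, Isl1 -0.45, Ezh2 -0.42, Nusap1 -0.38, Ube2c -0.32, Col4a1 -0.27 and Smad4 -0.22. Survivors and controls share no library in this contrast, but the passages and deposited tables are common to both.

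Of these genes 22 lost the call of the difference in at least 1 of the 13 fits that left out 1 library. The number of such fits was 11 for Ezh2, Idi1, Maff and Tnfaip3, 10 for Acta2 and Smad4, 9 for Adm, Aldoa, Ankrd37, Cdk1, S100a10 and Vcl, 8 for Stc2 and Ube2c, 7 for Col4a1 and Slc38a2, 6 for Bnip3l and Slc18a2, 4 for Chrna3 and Tgfb2 and 1 for Colgalt1 and Scap. More genes than these lost the call when passage 6 survivor libraries 2 and 3 were left out together. That fit leaves 1 passage 6 survivor library.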

How the results depend on the processing

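The count of genes called between the passages in survivors on the deposited FPKM (8797, with 2912 higher and 5885 lower) kept within 1.5 times its value under most alternatives. After median-of-ratios scaling 3805 were lower, with the replicate block added 3323, and without passage 6 survivor libraries 2 and 3 as well as that scaling 5006 were called, 2190 of them lower. A minimum of 5 FPKM left 1905 higher, with fewer genes tested, and centring within 10 length bins left 3827 lower. Leaving out 1 library gave 7902 to 8676 calls, 2452 to 2896 higher and 5404 to 5780 lower. The count for the difference from controls (1914, with 1099 higher and 815 lower) was less stable. It was 1185 (732 and 453) with no filter and 3187 (1767 and 1420) with array weights. With the replicate block it was 995 (563 and 432), and 941 (486 and 455) with that block after median-of-ratios scaling. Whether the replicate numbers pair the libraries was not settled, and the block left 8092 calls in survivors. Leaving out 1 library gave 1146 to 2535 (700 to 1399 higher and 442 to 1136 lower). The count fell past 1.5 times when any 1 control library was left out, and the lower count also without passage 6 survivor library 2 (525). The cause was not tested. The rise of the mitochondrial share, 12.3 percentage points, was 11.1 from protein-coding genes and 11.8 to 12.7 without 1 library. Of 192 genes named, 146 kept their direction and side of the threshold under every alternative in survivors, and of 86 with a called difference 46 did. Reversed values were 0.0839 for Hsp90aa1 and -0.0554 for mt-Cytb after quantile normalization, and 0.0156 for Jun after median-of-ratios scaling without passage 6 survivor libraries 2 and 3. Without counts the depth behind low FPKM is unknown.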
